A study of Homo sapiens with 32 samples.

Results

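The 33 genes described here encode the 26S proteasome, and they were taken from 18638 genes targeted in a pooled CRISPR-knockout screen. The members were chosen by name from the known composition of the particle. The rule uses no measured value, but it was written with earlier results of these data known. All 33 were found by their Ensembl identifiers, and each was targeted by 4 sgRNAs, which gave 132 of the 74987 sgRNAs of the library. The core particle was covered by the 7 alpha ring genes PSMA1 to PSMA7 and the 7 beta ring genes PSMB1 to PSMB7. POMP, the chaperone that assembles the beta ring, stood alone. The regulatory particle comprised 18 genes. Its base was covered by the 6 ATPases PSMC1 to PSMC6 and by PSMD1, PSMD2, PSMD4 and ADRM1, and its lid by PSMD3, PSMD6, PSMD7, PSMD8, PSMD11, PSMD12, PSMD13 and PSMD14.

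The screen used RKO cells, an established human colon carcinoma line labeled WT, in which Cas9 and the recorder Kinprola_PKA had been integrated by lentivirus. Kinprola_PKA is a split-HaloTag protein that becomes covalently labeled by the fluorescent substrate CPY-CA while protein kinase A (PKA) is active, and its EGFP reports how much recorder a cell holds. Cells carrying the sgRNA library were selected with puromycin, expanded, labeled with CPY-CA and sorted by the CPY-CA/EGFP ratio into a high, a medium (called basal in the labels) and a low population, and cells of day 0 (T0) were sequenced as well. Each of the 2 screens (labeled replicates 2 and 3) had 1 library per population, and all groups carried Cas9, the recorder and the sgRNA library. None of the sources used states whether the line was a single clone. The 8 libraries held 23369720 to 31777138 reads. Each read counts an sgRNA cassette in genomic DNA, so that neither the edit, the transcript nor the protein of a member was measured. A gene that is higher in the high population is one whose sgRNAs were relatively more frequent among strongly labeled cells.

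The proteasome degrades proteins that carry ubiquitin chains. The core particle is a barrel of stacked rings, in which the outer alpha rings gate the entry and the inner beta rings hold the peptidases. The regulatory particle caps the barrel: its base contains ubiquitin receptors and a ring of ATPases that unfold the substrate and push it inward, and its lid contains the enzyme that removes the ubiquitin chain. Proliferating cells depend on most of these subunits.

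The sgRNAs of nearly all members had become scarcer by the time of sorting. For this comparison the sorted pool was rebuilt in each screen from the scaled reads of the 3 populations, weighted by 0.25 for high, 0.5 for medium and 0.25 for low, and its log2 fold change over T0 was averaged over the sgRNAs of a gene. Of the 33 members, 32 were lower in the pool than at T0 (limma, adjusted p under 0.05), and all 33 were below 0 in both screens. Of all genes, 8.35% were lower by the same test. The median of the core particle was −2.64 on the log2 scale and that of the regulatory particle −1.76, beside 0.04 over all genes and 0.24 over the 278 sgRNAs without a target. Summed over sgRNAs, the core particle retained 19.4% of its T0 reads in screen 2 and 15.7% in screen 3. The regulatory particle retained 32.5% and 32.1%, and the sgRNAs without a target stood at 116% and 119%. The difference between the particles was described and not tested, since genes of a complex are not replicates.

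**Figure D1:**
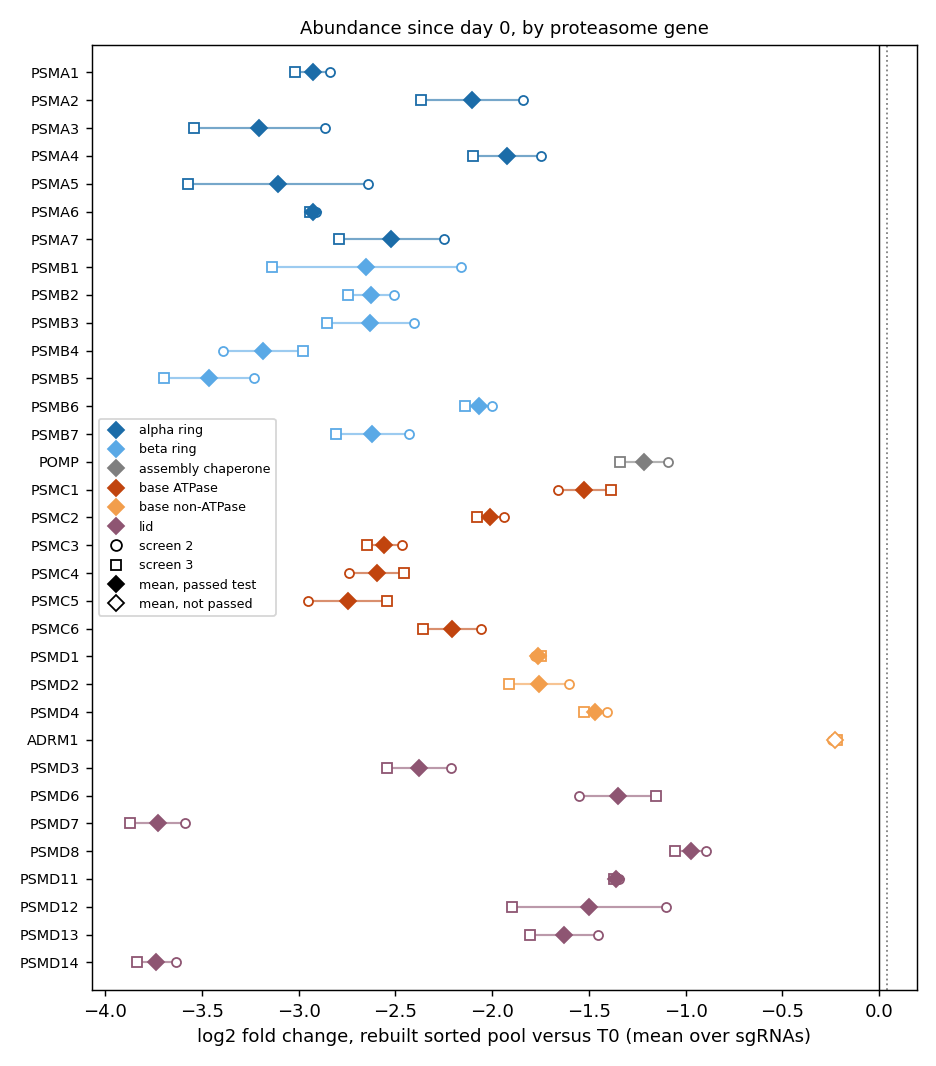
Log2 fold change of the rebuilt sorted pool over T0 for each member (x axis), with screen 2 as circles, screen 3 as squares and the mean of both as diamonds, filled where limma's adjusted p was under 0.05. All members lay below 0, and ADRM1 at −0.23 was the only open diamond, while PSMD14 and PSMD7 were lowest; the dotted line is the median of all genes at 0.04.

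Averaged over sgRNAs, the deepest falls were those of PSMD14, PSMD7 and PSMB5. PSMD14, the deubiquitinase of the lid, had 1214 and 1207 at T0, 166 and 126 in low, 159 and 164 in medium and 211 and 151 in high scaled reads in screens 2 and 3, where scaled reads are the reads of all 4 sgRNAs after scaling each library to the mean total. Its log2 fold change over T0 was −3.74 ± 0.10 (limma's moderated SE over 2 screens, limma adjusted p = 9.24e-20). PSMD7, the catalytically inactive partner of PSMD14, had 1542 and 1391 at T0, 63.0 and 44.9 in low, 84.7 and 64.0 in medium and 171 and 168 in high. Its change was −3.73 ± 0.10 (limma adjusted p = 1.05e-19), and averaged over sgRNAs the partners were 13.3-fold and 13.3-fold lower than at T0. PSMB5, the subunit with chymotrypsin-like activity and the target of bortezomib, had 1921 and 1746 at T0, 138 and 87.7 in low, 188 and 137 in medium and 361 and 238 in high. Its change was −3.47 ± 0.11 (limma adjusted p = 9.23e-19). Ranked from the lowest among 18638 genes, PSMD14, PSMD7 and PSMB5 stood at 4, 5 and 12. The place of PSMD14 rests on this averaging: its summed reads in the pool were 14.3% and 12.5% of T0, and with edgeR on summed reads it stood at −2.93, behind PSMD7 (−4.15), PSMA5 (−3.48), PSMB5 (−3.46), PSMB4 (−3.20), PSMA3 (−3.18) and PSMA1 (−3.08). Without sgRNAs under 20 reads in the sorted libraries it stood at −3.00, and PSMD7 and PSMB5 at −3.71 and −3.47.

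The other core genes fell by log2 values between −1.92 for PSMA4 and −3.20 for PSMA3. Within the beta ring, PSMB6 with caspase-like activity changed by −2.07 and PSMB7 with trypsin-like activity by −2.62, so that the 3 peptidase subunits did not fall equally. The 6 ATPases lay between −1.52 for PSMC1 and −2.75 for PSMC5. The non-ATPase genes of the base had a smaller median fall, −1.61 against −2.38 for the ATPases, although PSMC1 fell less than PSMD1 and PSMD2. The scaffold subunits PSMD1 and PSMD2 both stood at −1.76, and the ubiquitin receptor PSMD4 at −1.47. In the lid, outside PSMD7 and PSMD14, the range was from −2.38 for PSMD3 to −0.97 for PSMD8. The order of the members was similar in both screens (Pearson's r = 0.917 over 33 genes, a description across genes that are not independent).

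ADRM1, PSMD8 and POMP changed least. ADRM1, a ubiquitin receptor that docks on PSMD1, had 954 and 973 at T0, 941 and 956 in low, 838 and 905 in medium and 645 and 692 in high scaled reads. It retained 85.4% and 88.8% of its T0 reads, and its log2 fold change of −0.23 ± 0.09 did not pass the test (limma adjusted p = 0.135). PSMD8 had 1838 and 2018 at T0, 931 and 735 in low, 802 and 855 in medium and 909 and 978 in high and changed by −0.97 ± 0.10. POMP had 1110.3 and 1196 at T0, 639 and 572 in low, 627 and 537 in medium and 799 and 609 in high and changed by −1.22 ± 0.10. Both of these losses passed limma's test, with adjusted p = 9.07e-09 and 1.73e-10. Tested singly in medium versus T0, 119 of the 132 sgRNAs were lower (edgeR quasi-likelihood test, adjusted p under 0.05), against 5.44% of all sgRNAs tested. The core particle gave 54 of 56 and the regulatory particle 62 of 72. None of the 4 sgRNAs of ADRM1 was among them, and no other member had more than 1 sgRNA that was not lower.

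Among the reads that remained, the core particle and the regulatory particle differed in how they were spread over the labeling gates. In high versus low, 17 members were higher and 1 was lower (limma, adjusted p under 0.05). Over all genes, 5.25% were higher and 2.73% lower. The core particle supplied 13 of the 17, with a median log2 fold change of 1.09, and the regulatory particle 4, with a median of 0.15, beside −0.01 over all genes and −0.11 over the sgRNAs without a target. All 14 core genes were above 0 in both screens. Of the 18 regulatory genes, 8 were above 0 in both, 2 below 0 in both and 8 had opposite signs. Loss since T0 goes with this comparison in the whole library: of the 570 genes that fell by a log2 of 1 or more (3.06% of all), 54.2% were higher in high versus low and 16.0% lower. The pool contains the high and low libraries, so the counts are not independent. The median fall of these 570 genes was −1.66, less deep than the core median of −2.64 and close to the regulatory median of −1.76, so they are not matched to either particle. The difference between the particles in high versus low was not tested.

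**Figure D2:**
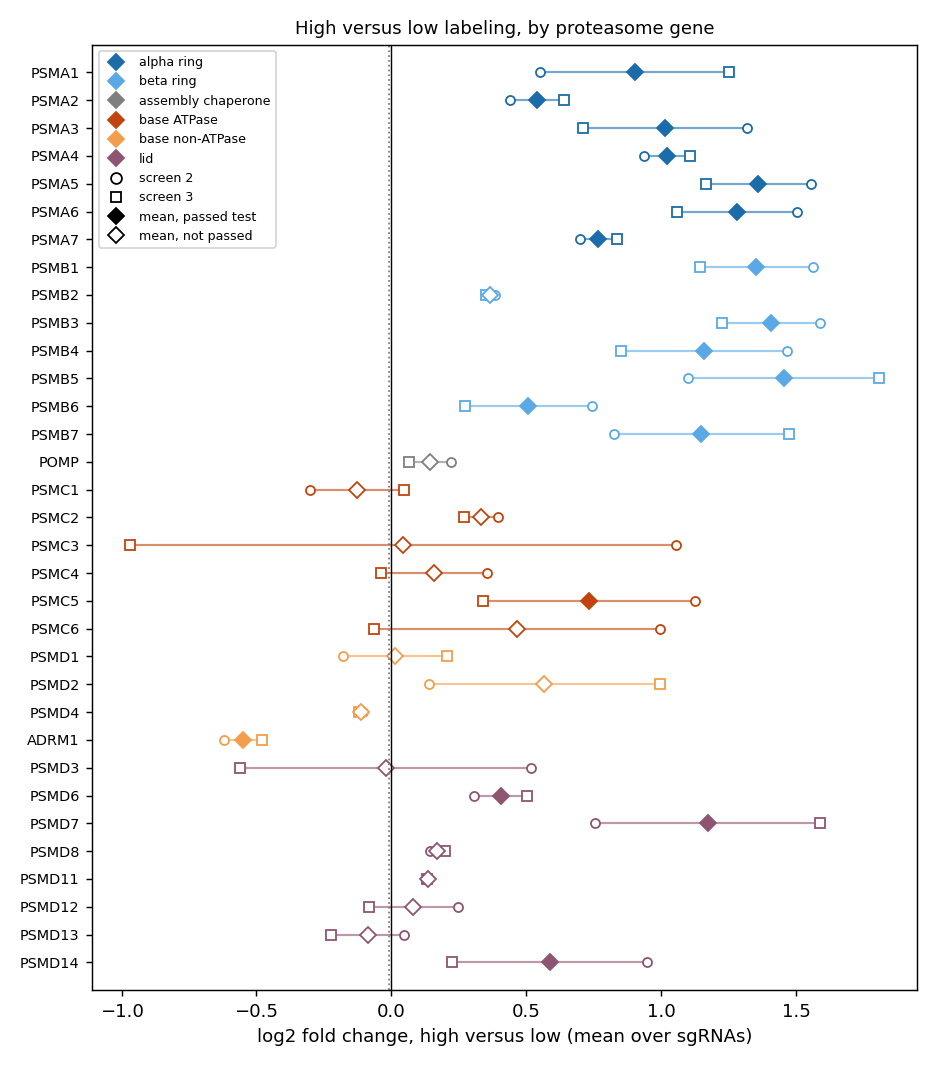
Log2 fold change in high versus low for each member (x axis), with screen 2 as circles, screen 3 as squares and the mean as diamonds, filled where limma's adjusted p was under 0.05. The alpha and beta ring genes all lay right of 0 in both screens, from 0.37 for PSMB2 to 1.45 for PSMB5, whereas the base and lid genes lay on both sides; the dotted line is the median of all genes at −0.01.

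The beta ring held the strongest shifts. PSMB5 (chromosome 14, 23016543 to 23035230, GRCh38) showed a 2.74-fold excess in high, or a log2 of 1.45 ± 0.15 (limma adjusted p = 4.40e-05). The reads given above for PSMB5 place 41.3% and 39.8% of its rebuilt pool in the high gate and 15.8% and 14.6% in the low gate. PSMB3, a beta ring subunit with no peptidase activity, had 1005 and 999.7 at T0, 117 and 109.6 in low, 135 and 93.9 in medium and 309 and 228 in high scaled reads. High exceeded low in both screens, with a log2 of 1.41 ± 0.12 (limma adjusted p = 9.30e-06). PSMB1 had 1058 and 1118 at T0, 219 and 91.0 in low, 202 and 138 in medium and 449.8 and 206 in high and a log2 of 1.35 ± 0.12. PSMB4 had 1405 and 1194 at T0, 101 and 97.5 in low, 128 and 157 in medium and 231 and 194 in high and a log2 of 1.16 ± 0.14. For PSMB1 and PSMB4 alike, low in screen 3 was the lowest of the 8 libraries.

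The 2 other peptidase subunits moved the same way. PSMB7 had 1961 and 1690.4 at T0, 303 and 203 in low, 312 and 219 in medium and 478 and 442 in high scaled reads and a log2 of 1.15 ± 0.14 in high versus low. PSMB6 had 1388 and 1424 at T0, 391 and 344 in low, 378 and 384 in medium and 563 and 525 in high and a smaller value of 0.51 ± 0.13 (limma adjusted p = 0.0316), with 0.74 in screen 2 and 0.27 in screen 3. Leaving out 1 library moved PSMB6 between 0.071 without high replicate 2 and 0.94 without high replicate 3, and it passed in neither. PSMB2 was the core gene that did not pass the test, with 0.38 and 0.35 in the screens and a mean of 0.37 ± 0.11 (limma adjusted p = 0.0665). Its reads were 802 and 808 at T0, 132 and 132 in low, 126 and 151 in medium and 192 and 179 in high.

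In the alpha ring, which forms the gate of the barrel, all 7 genes were higher in high versus low. PSMA5 had 1388 and 1317 at T0, 109 and 69.0 in low, 143 and 76.8 in medium and 349 and 166 in high scaled reads and the largest value of the ring, 1.36 ± 0.12 (limma adjusted p = 1.39e-05). PSMA6 had 952 and 878 at T0, 208 and 176 in low, 153 and 149 in medium and 293 and 275 in high and a log2 of 1.28 ± 0.13. For PSMA6 this value leaned on 1 sgRNA, number 2, with 0 and 1.10 scaled reads in low and 17.4 and 10.7 in high. A count of 0 allows up to 3 reads. Without sgRNAs that averaged fewer than 20 reads in the sorted libraries, PSMA6 stood at 0.60, and on summed reads at 0.57 without passing (edgeR adjusted p = 0.0748).

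PSMA4 had the most reads among the core genes in the sorted libraries, with 1739 and 1863 at T0, 519 and 414 in low, 509 and 455 in medium and 832 and 612 in high, and a log2 of 1.02 ± 0.11 (limma adjusted p = 6.16e-05). PSMA3 had 1728 and 1521 at T0, 160.2 and 129 in low, 217 and 128 in medium and 369 and 193 in high and 1.01 ± 0.14. The value of PSMA4 leaned on sgRNA 4, with 1.07 and 1.10 scaled reads in low and 27.0 and 16.6 in high. Without sgRNAs under 20 reads PSMA4 stood at 0.63, and on summed reads at 0.64, and it passed in both, while PSMA3 stood at 1.01 and 0.94. PSMA1 had 1039 and 997 at T0, 167 and 93.2 in low, 96.5 and 84.3 in medium and 244 and 203 in high and 0.90 ± 0.15. PSMA7 had 1619 and 1401 at T0, 323 and 173 in low, 339 and 188 in medium and 444 and 319 in high and 0.77 ± 0.11. The smallest value of the ring was that of PSMA2, 0.54 ± 0.11 (limma adjusted p = 0.00901), with 708 and 747 at T0, 110.0 and 105 in low, 208 and 134 in medium and 177 and 149 in high scaled reads. On summed reads PSMA2 did not pass (0.61, edgeR adjusted p = 0.174), and it passed under 6 of 13 alternatives.

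**Figure D3:**
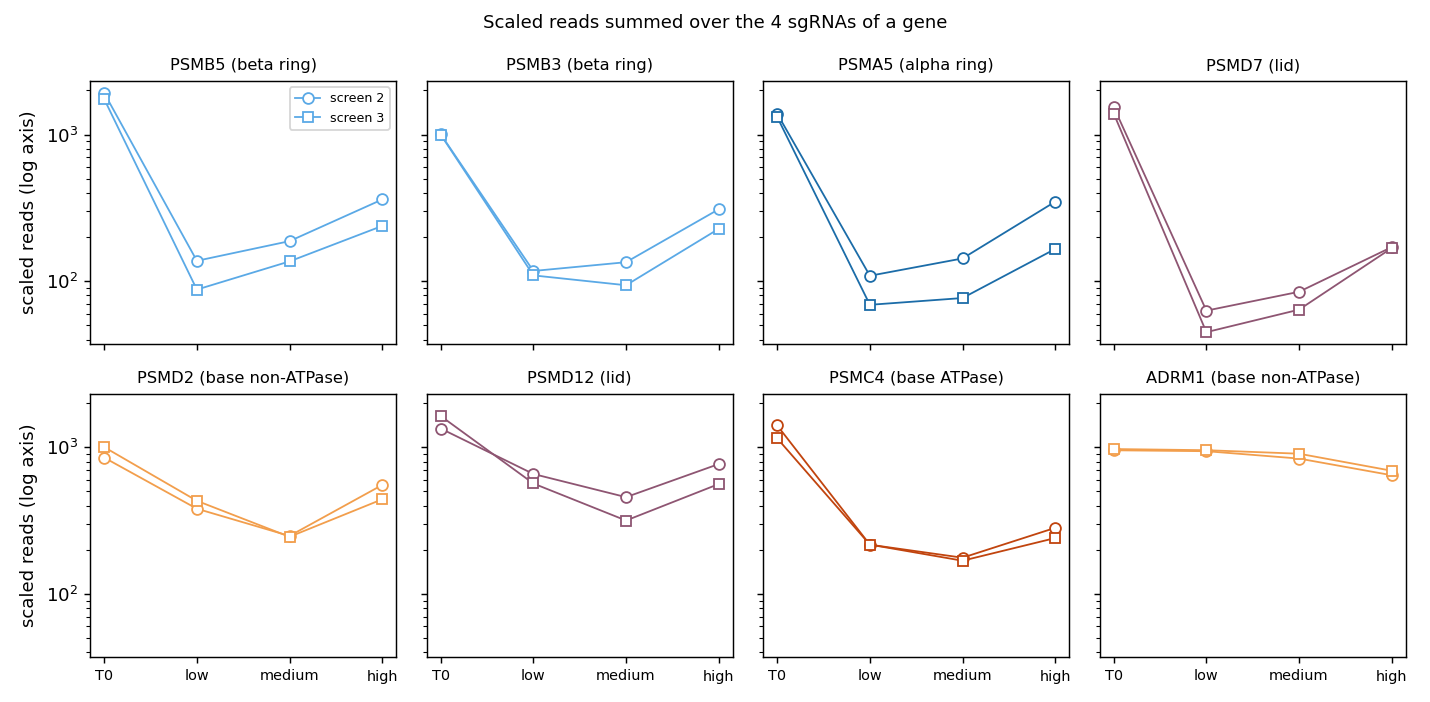
Scaled reads summed over the 4 sgRNAs of 8 members (y axis, log scale, shared by all panels) at T0 and in the low, medium and high populations, with screen 2 as circles and screen 3 as squares. PSMB5, PSMB3, PSMA5 and PSMD7 rose from low to high in both screens. PSMD2, PSMD12 and PSMC4 were lowest in medium in both screens, with smaller differences between the gates for PSMC4. ADRM1 stayed near its T0 level and was lowest in high.

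In the regulatory particle, PSMD7 was the gene that resembled the core in high versus low. Its log2 fold change in high versus low was 1.17 ± 0.16 (limma adjusted p = 5.17e-04), and its reads above were highest in high among the sorted populations of both screens. The location of PSMD7 is chromosome 16, 74296814 to 74306288 (GRCh38). PSMC5, an ATPase, had 1347 and 1224 at T0, 327 and 273 in low, 220.4 and 326 in medium and 392 and 283 in high scaled reads and a log2 of 0.73 ± 0.16 (limma adjusted p = 0.0123). Its sgRNA 1 had 0 reads in low of both screens, which allows up to 3 reads each, and 7.84 and 1.19 scaled reads in high. Without sgRNAs under 20 reads, PSMC5 stood at 0.27 (limma adjusted p = 0.231). PSMD14 had 0.59 ± 0.15 (limma adjusted p = 0.0359), and 0.03 without sgRNAs under 20 reads (limma adjusted p = 0.924). PSMD6, a lid subunit, had 1633 and 1504 at T0, 598 and 471 in low, 516 and 658 in medium and 576 and 660.1 in high and 0.40 ± 0.11 (limma adjusted p = 0.0484), and 0.21 when its reads were summed and tested with edgeR (adjusted p = 0.396). PSMD7 kept its call in both of these alternatives, at 1.41 and 1.66, but not in every alternative with a test, where it ranged from 0.68 to 1.67. Its screens gave 0.76 and 1.59, on an average of 24.8 scaled reads per sgRNA in the sorted libraries. In high versus medium PSMD7 did not pass (1.06 ± 0.32, limma adjusted p = 0.337).

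ADRM1 was the member that went the other way. With the reads given above, high lay below low in both screens, and its log2 of −0.55 ± 0.11 corresponds to a 1.46-fold excess in low (limma adjusted p = 0.00708). The high gate held 19.8% and 20.02% of its rebuilt pool, below the 23.8% and 24.0% of the sgRNAs without a target. The low gate held 28.8% and 27.6%, above their 25.3% and 25.6%. Of its 4 sgRNAs, 3 were lower in high than in low in both screens, and number 4, with 496 and 555 scaled reads in low and 347 and 384 in high, passed alone (edgeR log2 −0.52, adjusted p = 0.0441). ADRM1 lies at chromosome 20, 62302093 to 62308862 (GRCh38).

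The remaining regulatory genes did not pass in high versus low. Of these, PSMD2 had 0.57 ± 0.17 (limma adjusted p = 0.067) and PSMC6 0.47 ± 0.19 (limma adjusted p = 0.222), the largest values. PSMC3 had 1.06 in screen 2 and −0.97 in screen 3, the widest disagreement among all members, and PSMD3 had 0.52 and −0.56. PSMC1, PSMC2, PSMC4, PSMD1, PSMD4, PSMD8, PSMD11, PSMD12 and PSMD13 lay between −0.13 and 0.33. POMP stood at 0.14 ± 0.11, with 3 of its 4 sgRNAs above 0 in both screens.

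Members that had fallen further since T0 had, on the whole, larger values in high versus low. Pearson's r between both log2 fold changes was −0.743 over the 33 members, −0.566 over the 14 core genes and −0.731 over the 18 regulatory genes. Spearman's rho was −0.746, −0.560 and −0.529 in the same order. Both coefficients are a description across genes whose comparisons share the high and low libraries. Of the core genes, 13 had fallen by a log2 of 2 or more, and 12 of these were higher. Of the regulatory genes, 8 had fallen that far, namely PSMC2 to PSMC6, PSMD3, PSMD7 and PSMD14, and 3 of these were higher. PSMC4 was among those that did not pass. It had 1409 and 1151 at T0, 217 and 217 in low, 177 and 169 in medium and 282 and 241 in high scaled reads. Its fall was −2.60, and its log2 in high versus low 0.16 ± 0.12 (limma adjusted p = 0.601). Core genes with a similar fall were PSMA7 (−2.52), PSMB7 (−2.62), PSMB2 (−2.63), PSMB3 (−2.63) and PSMB1 (−2.65). In high versus low they had 0.77, 1.15, 0.37, 1.41 and 1.35, and PSMB2 did not pass. In the regulatory particle, PSMC3 (−2.56) had 0.04 without passing, and PSMC5 (−2.75) passed at 0.73. The part of the loss in the difference between the particles was not tested.

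Single sgRNAs showed the same division. In the core particle, 47 of 56 sgRNAs were above 0 in both screens and 0 were below 0 in both. The regulatory particle gave 25 and 11 of 72, and all gene sgRNAs 27.6% and 29.0%. PSMB3, PSMB4, PSMB5, PSMB7, PSMA3, PSMA5 and PSMA6 had all 4 sgRNAs above 0 in both screens. Of 126 member sgRNAs with enough reads to be tested, 9 were higher and 1 was lower (edgeR, adjusted p under 0.05), beside 2.95% and 1.55% of all sgRNAs. These 9 were 2 of PSMB5, 2 of PSMD7 and 1 each of PSMA1, PSMA4, PSMA5, PSMB1 and PSMB7. PSMB5 sgRNA 2 had 23.5 and 12.1 scaled reads in low and 93.3 and 87.7 in high (edgeR log2 2.46, adjusted p = 0.00224). PSMD7 sgRNA 1 had 20.3 and 10.96 in low and 88.9 and 64.0 in high (edgeR log2 2.31, adjusted p = 0.00835).

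The loss since T0 left few reads for these comparisons. The median member sgRNA had 48.8 scaled reads per sorted library against 308 over all gene sgRNAs, 19 of the 132 averaged under 20, and 9 had no read in at least 1 sorted library. Leaving out 1 library and fitting the rest reduced the 17 members higher in high versus low to 7 without high replicate 2, 10 without high replicate 3, 9 without low replicate 2 and 7 without low replicate 3. PSMA5, PSMB3 and PSMB7 passed under all 13 alternatives with a test.

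Set against the medium population, 8 of the 14 core genes were higher in high, while in low they lay on both sides of medium. In high versus medium, 11 members were higher (limma, adjusted p under 0.05) and 0 lower (3 at an unadjusted p under 0.05, and 0 by edgeR on summed reads), with 1.7% and 0.0966% over all genes and 29.5% and 1.75% among the genes that fell by a log2 of 1 or more. They were PSMA1, PSMA3, PSMA5, PSMA6, PSMB1, PSMB3, PSMB5 and PSMB7 of the core and PSMD2, PSMD3 and PSMD12 of the regulatory particle. The core median was 0.88 and the regulatory median 0.40. In low versus medium, 6 members were higher and 2 lower, with 1.18% and 1.54% over all genes and 15.4% and 15.8% among the genes that fell. The core median was −0.02, with a range from −0.99 for PSMA2 to 0.71 for PSMA1 and 3 core genes higher and 3 lower at an unadjusted p under 0.05, and the regulatory median was 0.17. Both comparisons share the medium libraries.

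**Figure D4:**
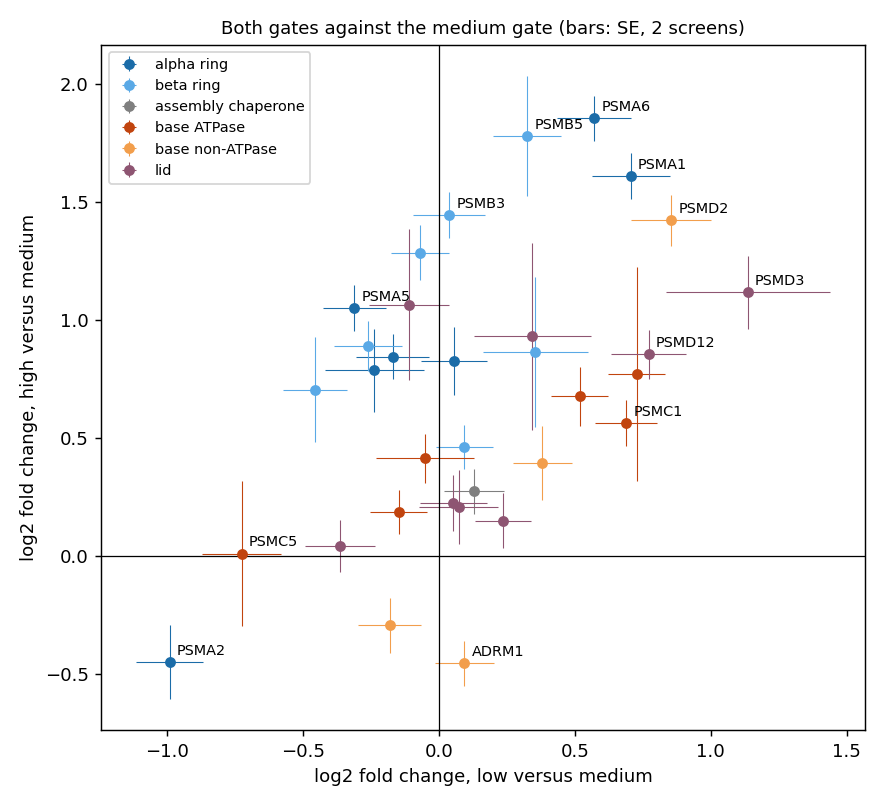
Log2 fold change in low versus medium (x axis) against high versus medium (y axis) for the 33 members, colored by role. Bars are 1 SE over the 2 screens, as moderated by limma. PSMB3 and PSMA5 sat near 0 or left of it on the x axis and above 1 on the y axis, whereas PSMD2, PSMD3, PSMD12 and PSMC1 were right of 0 and above 0; both axes use the same medium libraries.

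PSMD2 and PSMD12 were scarce in medium relative to both outer gates. They were not alone: summed reads were lowest in medium among the sorted populations of both screens for PSMA1, PSMA6, PSMC1, PSMC4, PSMD3 and POMP as well. PSMA1 also passed in both comparisons with medium. PSMD2, the base scaffold that also receives ubiquitin-like domains of shuttle proteins, had 851 and 1003 at T0, 381 and 432 in low, 249 and 245 in medium and 553 and 442 in high scaled reads. Medium was the lowest sorted population in both screens, with 0.85 ± 0.15 in low versus medium (limma adjusted p = 0.0159) and 1.42 ± 0.11 in high versus medium (limma adjusted p = 0.00703). PSMD12, a lid subunit, had 1343 and 1634 at T0, 658 and 567 in low, 457 and 317 in medium and 769 and 562 in high. Its medium reads were again below low and high in both screens, with 0.77 ± 0.14 (limma adjusted p = 0.0215) and 0.85 ± 0.10 (limma adjusted p = 0.023). Low exceeded medium for all 4 sgRNAs of PSMD12 in the edgeR estimates, by log2 values of 1.39, 0.19, 0.84 and 0.62. PSMD3 had 585 and 509 at T0, 136 and 175 in low, 127 and 73.6 in medium and 182 and 161 in high and 1.12 ± 0.16 in high versus medium (limma adjusted p = 0.0334), and 0.31 and 1.97 in low versus medium, which did not pass.

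The other calls in low versus medium were PSMA1, PSMC1, PSMC3 and PSMC4 as higher and PSMA2 and PSMC5 as lower. PSMC1 had 1741 and 1637 at T0, 827 and 663 in low, 610.3 and 591 in medium and 743 and 709.9 in high scaled reads and 0.69 ± 0.11 (limma adjusted p = 0.0135). PSMC4, with the reads above, had 0.52 ± 0.10 (limma adjusted p = 0.0364). PSMC3 had the fewest reads of all members in the sorted libraries, 468 and 517 at T0, 71.5 and 102 in low, 74.7 and 74.7 in medium and 139 and 78.2 in high, and 0.73 ± 0.10 (limma adjusted p = 0.0071). PSMA1 had 0.71 ± 0.14, PSMC5 −0.72 ± 0.15 and PSMA2 −0.99 ± 0.12. With the sgRNAs under 20 reads left out, PSMA1 (−0.10), PSMC3 (−0.09) and PSMC5 (0.13) changed sign and PSMA2 (−0.65, limma adjusted p = 0.136) no longer passed, while PSMC1, PSMC4, PSMD2 and PSMD12 passed. When reads were summed per gene and tested with edgeR, PSMD2 and PSMD12 were the 2 that passed. Leaving out any 1 library of the comparison left 1 or 2 members higher.

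The asymmetry about medium, log2 low plus log2 high minus 2 times log2 medium, is above 0 for a gene that is scarce in the middle gate. A gene raised in 1 outer gate and level in the other is above 0 as well. PSMB3, for example, had 0.04 in low versus medium, 1.44 in high versus medium and an asymmetry of 1.48. The asymmetry was higher for 3 members, PSMA1, PSMA6 and PSMD2, out of 7 genes in all (limma, adjusted p under 0.05), or 0.0376% of all genes and 1.23% of the genes that fell. The values were 2.31 ± 0.19, 2.43 ± 0.21 and 2.28 ± 0.18, each with a limma adjusted p = 0.0304. PSMD3 (2.25), PSMB5 (2.10) and PSMD12 (1.63) were high too without passing, and their screens differed more. PSMA2 was at the other end with −1.44 ± 0.26 (limma adjusted p = 0.164), the fifth lowest of 18638 genes. Without sgRNAs under 20 reads, PSMA1 stood at 0.95 (limma adjusted p = 0.144) and PSMA6 at 1.76 (limma adjusted p = 0.0399). On summed reads PSMA1 passed at 1.82 (edgeR adjusted p = 0.0128), and PSMA6 at 1.26 did not (edgeR adjusted p = 0.114). PSMD2 passed in both. Of the 15 alternatives with a test, PSMA1 passed in 9, PSMA6 in 14 and PSMD2 in 10.

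Among single sgRNAs, 5 of the members were higher in high versus medium and 2 in low versus medium (edgeR, adjusted p under 0.05). The shares over all sgRNAs were 1.13% higher and 0.121% lower in the first comparison and 0.645% and 0.755% in the second. PSMD2 sgRNA 1 had 36.3 and 8.77 scaled reads in low, 10.0 and 5.33 in medium and 105 and 43.8 in high. It gave 3.26 in high versus medium (edgeR adjusted p = 0.00107). PSMC1 sgRNA 4 had 82.2 and 105 in low and 23.7 and 32.0 in medium, a log2 of 1.76 (edgeR adjusted p = 0.0191). The others were PSMA5 sgRNA 1, PSMB3 sgRNA 2, PSMB5 sgRNA 2 and PSMD12 sgRNA 3 in high versus medium and PSMD12 sgRNA 1 in low versus medium.

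Spread over the 3 gates, the core particle had 20.6% of its rebuilt pool in low, 43.0% in medium and 36.4% in high in screen 2, and 19.97%, 44.8% and 35.3% in screen 3. The regulatory particle had 26.3%, 45.6% and 28.1%, and 24.96%, 48.8% and 26.3%. The sgRNAs without a target had 25.3%, 50.8% and 23.8%, and 25.6%, 50.4% and 24.0%. The core therefore had more of its weighted reads in high and fewer in both other gates than the sgRNAs without a target in each screen.

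Few other genes of the proteasome passed these tests. A list of 25 further genes held assembly chaperones, tissue and immune subunits, activators and associated enzymes. In pool versus T0, 1 of the 25 was lower and 1 higher, and in high versus low 0 were higher (2 at an unadjusted p under 0.05) and 1 lower. Over all genes, 8.35% were lower in pool versus T0, and 2029 of 18638 passed in either direction. In high versus low, 5.25% of all genes were higher and 2.73% lower. PAAF1, a chaperone of the ATPase ring, was the one that was higher since T0 (0.52, limma adjusted p = 2.58e-04) and lower in high versus low (−0.63, limma adjusted p = 0.00611). PSME2, a subunit of an interferon-inducible activator, was lower since T0 (−0.33, limma adjusted p = 0.0242). The medians of the list were 0.06 since T0 and −0.03 in high versus low. The small lid subunit SEM1 did not pass in either comparison (−0.23 and 0.24) and is named after its values were seen.

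A list of 20 genes of ubiquitin supply and of delivery to the proteasome gave losses since T0 but no gene higher in high versus low. In pool versus T0, 7 of the 20 were lower, and in high versus low 4 were lower and 0 higher (1 at an unadjusted p under 0.05). The shares over all genes were 8.35% lower in pool versus T0, and 2.73% lower and 5.25% higher in high versus low. VCP, the p97 ATPase that extracts substrates, changed by −2.43 since T0 and by −0.21 in high versus low (limma adjusted p = 0.482). Its cofactors NPLOC4 and UFD1 changed by −0.73 and −0.61 since T0, and both were lower in high versus low, at −0.70 (limma adjusted p = 0.00103) and −0.54 (limma adjusted p = 0.0246). The ubiquitin genes RPS27A and UBB stood at −2.14 and −0.57 since T0. UBA1, the main ubiquitin-activating enzyme, was lower in high versus low as well (−0.40, limma adjusted p = 0.0462) and the 1 gene of the list that was higher in low versus medium (0.91, limma adjusted p = 0.0126); it is named after its values were seen.

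The library also holds control entries under the symbols PSMA3 and PSMB2, with 5 sgRNAs each, which were kept apart from the members. They did not follow the genes of the same name, with −0.10 and −0.02 since T0 (limma adjusted p = 0.558 and 0.938) against −3.20 and −2.63 for the members.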

How the data were processed

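The authors used MAGeCK to obtain raw counts for each sgRNA, as their methods and processing notes state, and the deposited table keeps the sequencing lanes apart. An aligner and a genome build are not given in the sources used here. Each of the 8 libraries is the sum of 4 lanes, whose spread was near counting noise by a chi-square test over sgRNAs of 20 or more reads. The last lane of each medium library has a description that names the high population and was assigned by its title. A further 4 columns of the table match no sample and were not used, and sgRNA sequences were not used here.

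Each library was scaled to 27695208 reads, the mean total, and values were log2-transformed after adding 1 read. A gene's value in a screen was the mean difference of its sgRNAs. These values of the 2 screens were tested against 0 (two-sided) in R 4.3.3 with lmFit and eBayes of limma 3.58.1, adjusting by Benjamini-Hochberg over 18659 entries. Fold changes are thus on the log2(reads + 1) scale, which shrinks the ratios of sgRNAs with few reads. Such sgRNAs still moved gene values in either direction. Without those under 20 reads, PSMA6 in high versus low went from 1.28 to 0.60 and PSMA1 from 0.90 to 1.16. The methods name these steps but not the scaling or the added read, and the authors' removal of core-essential genes was not applied. For single sgRNAs, edgeR 4.0.16 was applied (quasi-likelihood test, filterByExpr, TMM, screen as a block) on the deposited counts, with the 6 sorted libraries in one fit and the 4 medium and T0 libraries in another. On simulated counts, limma was run for high versus low and pool versus T0, and edgeR for high versus low. The edgeR fit of medium and T0 was not simulated. Simulated sgRNAs had their mean level over all libraries, so the fall of the members since T0 was not reproduced.

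The screens were run independently, so the difference within a screen is a block by construction. Deviations of same-numbered libraries correlated at 0.158 for low and medium, 0.123 for low and high and 0.161 for medium and high, and at 0.067 to 0.086 with T0. The p-values rest on 2 screens of 1 cell line. Those of limma, and each SE, are moderated: the spread of a gene is drawn toward that of all entries. This prior held 10.24 degrees of freedom in high versus low and 23.64 in pool versus T0, against 1 from the gene itself. An SE can thus lie below or above the gene's own spread, as for PSMD7 (0.76 and 1.59, SE 0.16) and PSMB2 (0.38 and 0.35, SE 0.11) in high versus low. Reads carry no molecular identifiers, so counts of reads are not counts of cells. The members, roles and gene lists were chosen with earlier results of these data known. Full values per library are given for members past a gene test against another gate, for the 3 largest and 3 smallest changes since T0, and for the largest shift of each role. Genes of the other lists were named by size, at most 6 a list, unless stated. The values of 1 gene of these lists are not reported here. Coordinates come from GENCODE release 44 (GRCh38). DESeq2 1.42.0 was an alternative, and Python 3.11.15 prepared the counts and drew the figures.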

Additional observations from a re-analysis of the deposited data

How the results depend on the processing

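The count of 32 members lower than at T0 stayed between 32 and 33 under every alternative with a test, and the 119 sgRNAs lower in medium versus T0 between 101 (DESeq2) and 119, with 103 to 110 when 1 library was left out. Counts of the gate comparisons moved more. On all 8 libraries with no replicate block, 7 members were higher in high versus low, 2 higher and 1 lower in low versus medium, 6 higher and 1 lower in high versus medium, and 1 in the asymmetry. With the replicate block on 8 libraries, low versus medium gave 3 and 1, and 1 member was lower in high versus medium. With edgeR on summed reads and the replicate block, low versus medium gave 2 and 0. A pseudocount of 5 reads left 1 lower in low versus medium and gave 7 in the asymmetry. The median over sgRNAs gave 20 higher and 1 lower in high versus medium and 12 in the asymmetry. Only sgRNAs with at least 50 reads at T0 gave 10 higher and 1 lower in the asymmetry. Centring on sgRNAs without a target left 1 lower in low versus medium and gave 5 in the asymmetry. For sgRNAs, DESeq2 gave 5 higher and 0 lower in high versus low, 0 in low versus medium and 2 in high versus medium, and edgeR with no replicate block 0 lower in high versus low, 0 higher in low versus medium and 3 in high versus medium. Leaving out 1 library gave 7 to 10 members higher and 0 to 1 lower in high versus low, 1 to 2 and 0 to 1 in low versus medium, 6 to 11 and 0 to 1 in high versus medium, and 1 to 3 and 0 to 1 in the asymmetry. It gave 1 to 4 sgRNAs higher and 0 lower in high versus low, 0 to 2 higher in low versus medium and 1 to 2 in high versus medium. Those fits pool the spread of the other libraries, and a lone library is assumed to vary like them. In low versus medium, PSMC5 reversed on summed reads (0.13) and without sgRNAs under 20 reads (0.13), as did PSMA1 (−0.10) and PSMC3 (−0.091) in the latter, 2 alternatives chosen after seeing the data. The cause of these changes was not tested. With 2 screens and a median of 48.8 scaled reads, a member without a call between gates was not shown to be unchanged. The smallest difference that could be detected was not estimated for the members.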
